A study of Mus musculus with 15 samples.

Results

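The guanylate-binding proteins are a family of large GTPases that interferons switch on, and 6 of their genes, Gbp2, Gbp2b, Gbp3, Gbp6, Gbp7 and Gbp8, were followed across 15 arrays of mouse foam cells. The members were all probe sets annotated to exactly 1 of these 6 symbols, which gave 9 probe sets of 45037 in the table, for 6 genes of 18193. Gbp2, Gbp6 and Gbp7 had 2 probe sets each. The brightest one represents its gene in the test over all genes, and the other is shown beside it. Of the 6 genes, 5 passed the filter on dim genes, as did 11925 of the 18193 genes, and Gbp2b did not.

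Foam cells are macrophages loaded with lipid in atherosclerotic lesions. They were cut by laser from sections of the aortic sinus of C57BL/6 mice with the genotype ApoE-/-, which lack apolipoprotein E in every group. The RNA of the cells was amplified, labelled with biotin and measured on whole-genome mouse arrays of Affymetrix, with 5 arrays in each of 3 diet groups. CHOW mice ate regular chow up to the age of 22 weeks, 2w-WD mice had a western-type diet for 2 weeks, and 14w-WD mice had it for 14 weeks, starting at 8 weeks of age and ending at 22. The age of the 2w-WD mice is not settled, since their own labels speak of 20 weeks on chow before the switch and the series text of a diet between weeks 22 and 24. All the mice carry the same gene defect, and no group of wild-type mice or of mice without lesions was analysed here. Which animals an array stands for is not stated, so the p-values rest on the spread between arrays, part of which may be technical. In captured tissue, fewer cells of a type and less RNA per cell cannot be told apart.

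Interferon-gamma from T cells and NK cells, and type I interferons, bring about the transcription of guanylate-binding protein genes through transcription factors that their receptors activate. The proteins bind GTP, assemble into coats on the vacuoles of intracellular pathogens and on bacteria in the cytosol, and help to break them open and to expose their content to the inflammasomes. In the mouse the genes lie in clusters on chromosomes 3 and 5. Lesional macrophages are exposed to interferon-gamma from T cells, and interferon-gamma is a known factor of atherosclerosis in mice that lack apolipoprotein E.

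Factors that interferons activate bind the gamma-activated site (GAS, searched here as TTCNNNGAA) and the interferon-stimulated response element (ISRE, searched here as GAAA, any 2 bases and GAAA), and the members were compared for these letters. RefSeq promoter windows of build GRCm38.p6, 250 bases before to 50 bases after the start, held an entry for 4 of the 6 genes, Gbp2, Gbp2b, Gbp3 and Gbp7. The 4 lie close together on the + strand of chromosome 3 in the order Gbp7, Gbp3, Gbp2b and Gbp2, while Gbp8 and Gbp6 lie on chromosome 5. The windows are shown because a gene that was called in the diet comparisons (Gbp3) and a gene that stayed near the floor of the array (Gbp2b) sit in 1 cluster. Capitals mark matches to either motif on either strand, and an ISRE on the other strand reads here as TTTC, any 2 bases and TTTC.
Gbp3 promoter (chr3:142559794-142560093, + strand): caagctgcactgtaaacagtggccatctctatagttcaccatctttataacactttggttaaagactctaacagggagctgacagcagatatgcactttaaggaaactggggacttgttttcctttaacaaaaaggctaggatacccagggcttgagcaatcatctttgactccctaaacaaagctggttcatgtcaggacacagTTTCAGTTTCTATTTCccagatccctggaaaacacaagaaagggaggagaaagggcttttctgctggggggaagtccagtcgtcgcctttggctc
Gbp7 promoter (chr3:142530086-142530385, + strand): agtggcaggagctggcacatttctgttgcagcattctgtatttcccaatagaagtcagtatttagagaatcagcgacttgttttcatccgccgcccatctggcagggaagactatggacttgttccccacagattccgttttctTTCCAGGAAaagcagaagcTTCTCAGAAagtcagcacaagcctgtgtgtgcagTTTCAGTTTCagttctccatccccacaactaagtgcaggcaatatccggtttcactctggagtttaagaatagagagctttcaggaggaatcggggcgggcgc
Gbp2b promoter (chr3:142594597-142594896, + strand): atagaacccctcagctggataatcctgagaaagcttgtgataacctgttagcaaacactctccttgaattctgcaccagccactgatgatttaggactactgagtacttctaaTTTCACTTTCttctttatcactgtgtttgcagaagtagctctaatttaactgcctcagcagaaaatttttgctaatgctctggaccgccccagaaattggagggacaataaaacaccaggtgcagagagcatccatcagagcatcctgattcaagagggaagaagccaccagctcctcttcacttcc
Gbp2 promoter (chr3:142620413-142620712, + strand): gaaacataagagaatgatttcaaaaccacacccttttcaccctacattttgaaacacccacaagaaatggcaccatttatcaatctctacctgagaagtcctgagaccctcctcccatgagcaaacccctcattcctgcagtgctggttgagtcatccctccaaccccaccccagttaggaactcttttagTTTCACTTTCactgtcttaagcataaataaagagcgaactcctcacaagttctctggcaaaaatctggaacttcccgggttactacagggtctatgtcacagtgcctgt
All 4 genes had at least 1 ISRE match. Those of Gbp3 began 45 and 39 bases before the start and overlap each other, and those of Gbp7, Gbp2 and Gbp2b began 53, 59 and 137 bases before it. Gbp7 also had 2 GAS matches, at 106 and 87 bases before the start, and the other 3 had none. A further RefSeq start of Gbp3 (chr3:142560106-142560405) had neither motif. Of all 32851 promoter windows of the same length, 3.44% held an ISRE match, 8.3% a GAS match and 0.454% both. A match says only that these letters stand in the window.

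Across the diets, Gbp3 and Gbp6 carried the clearest differences: by their representative probe sets both were brighter after 14 weeks of western diet than after 2 weeks, and every 14w-WD array exceeded every CHOW array. The other probe set of Gbp6 overlapped between 14w-WD and CHOW. A dim second probe set of Gbp2 showed the same order against 2w-WD, whereas the bright probe set of Gbp2 differed between groups by a log2 of at most 0.25. Gbp7 and Gbp8 had differences between these, and neither was called. Levels below are intensities, or log2(intensity + 16) where log2 is named, and they are comparable between arrays for 1 probe set but not between probe sets. Adding 16 makes the fold changes of dim probe sets smaller than those of the intensities themselves.

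**Figure D1:**
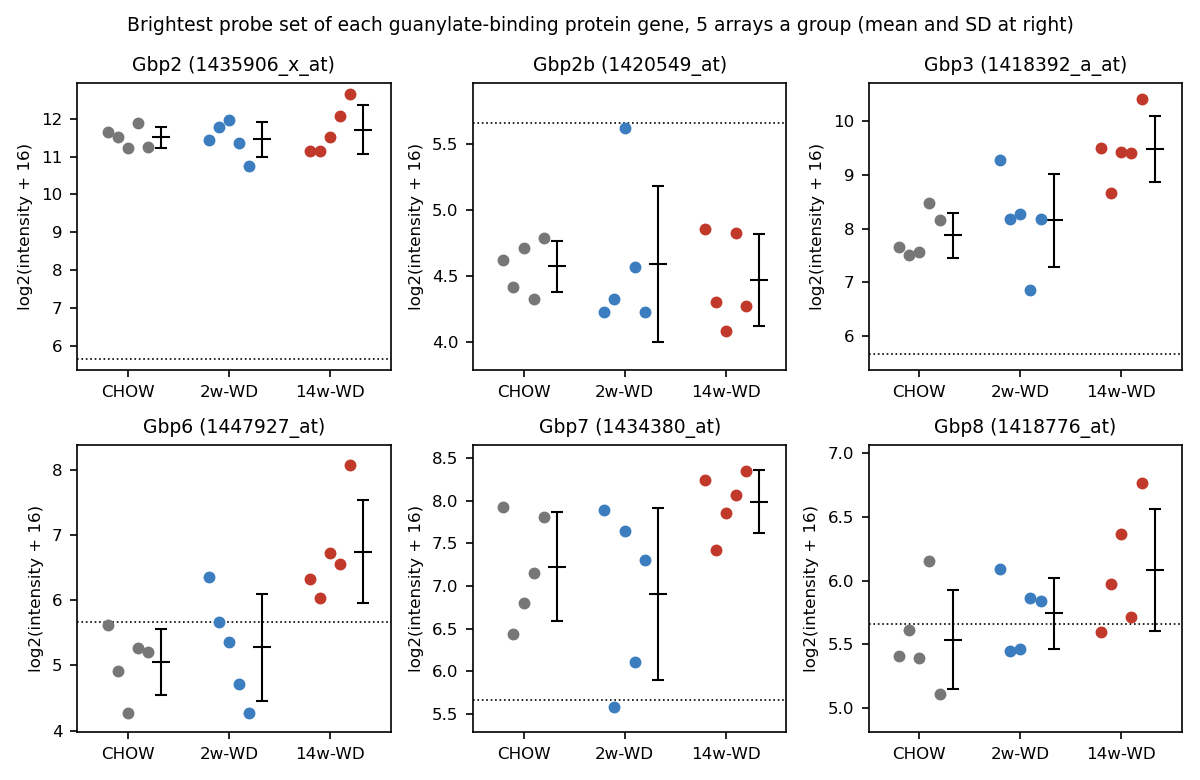
Levels of the brightest probe set of each of the 6 genes as log2(intensity + 16), with 1 point per array, 5 arrays in each of CHOW, 2w-WD and 14w-WD, the mean and SD to the right of each group, and the filter level of 5.66 as a dotted line. In Gbp3 and Gbp6 all 5 points of 14w-WD lie above all 5 of CHOW, and in Gbp2b all 15 points lie below the dotted line.

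Gbp3, a member that is recruited to the vacuole of Toxoplasma in mouse cells, had intensities of 186, 167, 173, 341 and 269 in CHOW, of 605, 272, 294, 99.4 and 273 in 2w-WD, and of 711, 391, 673, 661 and 1348 in 14w-WD. The lowest 14w-WD array lay above the highest CHOW array, 2w-WD replicate 1 reached the range of 14w-WD, and 2w-WD replicate 4 was the lowest of all 15. The log2 means were 7.87 ± 0.42 for CHOW, 8.15 ± 0.86 for 2w-WD and 9.48 ± 0.62 for 14w-WD (SD, n = 5 each), so that 2w-WD and CHOW differed by less than their spread. Gbp3 rose in 14w-WD against 2w-WD by a log2 of 1.33 (95% interval 0.46 to 2.20), which is 2.52-fold (limma, SE 0.41, adjusted p = 0.0467, exact permutation p = 0.0159). Against CHOW the difference of 14w-WD was larger, 1.61 or 3.05-fold, but over the 11925 genes it did not pass (limma, SE 0.41, adjusted p = 0.117). The exact permutation p, two-sided and not adjusted, was 0.00794, the smallest that 5 against 5 arrays allow.

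Gbp6, which lies in the cluster on chromosome 5 and is likewise recruited to the Toxoplasma vacuole, was measured by 2 dim probe sets. Its representative, 1447927_at, had intensities of 33.2, 14.1, 3.38, 22.4 and 21.0 in CHOW, of 66.2, 34.9, 25.1, 10.3 and 3.31 in 2w-WD, and of 64.6, 49.3, 89.8, 77.8 and 255 in 14w-WD. No 14w-WD array fell into the range of CHOW, and 2w-WD replicate 1 was as bright as 14w-WD replicate 1. All 5 CHOW arrays lay below the filter intensity of 34.6, and both CHOW (log2 5.06 ± 0.50) and 2w-WD (5.28 ± 0.82) had means below the filter level of 5.66, against 6.74 ± 0.79 in 14w-WD. Gbp6 therefore passed the filter through 14w-WD alone, with an overall mean of 5.69. It rose in 14w-WD against 2w-WD by 1.47 (95% interval 0.62 to 2.31), or 2.77-fold (limma, SE 0.40, adjusted p = 0.0314, exact permutation p = 0.0238). With no filter at all its adjusted p was 0.0412. Against CHOW the difference was 1.69, or 3.22-fold, with adjusted p = 0.0956 in limma and the smallest possible exact permutation p of 0.00794.

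The other probe set of Gbp6, 1438676_at, had intensities of 10.6, 13.0, 10.9, 28.1 and 6.51 in CHOW, of 64.1, 51.8, 18.9, 48.0 and 12.5 in 2w-WD, and of 37.3, 26.3, 107, 90.7 and 119 in 14w-WD. Here 2w-WD stood between the other groups, 14w-WD replicates 1 and 2 lay within the range of 2w-WD, and 14w-WD replicate 2 lay below CHOW replicate 4. Its difference in 14w-WD was 1.52 against CHOW (limma over all probe sets, adjusted p = 0.119, exact permutation p = 0.0159) but only 0.71 against 2w-WD (adjusted p = 0.244, exact permutation p = 0.151). The probe sets of Gbp6 thus shared the direction in all 3 comparisons, and the rise against 2w-WD was called in 1 of them.

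Gbp7, which in mouse macrophages takes part in assembling the NADPH oxidase on bacterial vacuoles, had intensities for 1434380_at of 227, 70.8, 95.4, 127 and 209 in CHOW, of 221, 31.9, 184, 53.3 and 142 in 2w-WD, and of 287, 155, 215, 253 and 310 in 14w-WD. The 14w-WD arrays were the most alike and the 2w-WD arrays the most spread, with replicates 2 and 4 of 2w-WD the lowest, and the groups overlapped. The log2 means were 7.23 ± 0.64, 6.90 ± 1.00 and 7.99 ± 0.37 in CHOW, 2w-WD and 14w-WD (SD, n = 5 each). The difference of 14w-WD from 2w-WD was 1.08 (SE 0.42, adjusted p = 0.0932 in limma, exact permutation p = 0.0476), and that from CHOW was 0.76 (SE 0.42, adjusted p = 0.382, exact permutation p = 0.0556). Neither passed. With single arrays left out in turn, the adjusted p in limma for 14w-WD against 2w-WD ran from 0.0254 to 0.231. The lowest came without 2w-WD replicate 1, a bright array. Over the same fits the calls among all genes ran from 164 to 3536.

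The dimmer probe set of Gbp7, 1425156_at, spread less in CHOW and 2w-WD (SD of the log2 levels 0.37 and 0.25) but not in 14w-WD (0.42). It had 92.8, 66.7, 135, 64.5 and 78.1 in CHOW, 83.3, 58.2, 74.1, 48.1 and 56.5 in 2w-WD, and 93.2, 68.4, 68.7, 136 and 134 in 14w-WD. All 5 arrays of 14w-WD lay above the median of 2w-WD and 3 lay above its highest array, with a difference of 0.50 (limma, adjusted p = 0.241, exact permutation p = 0.0635). Against CHOW it was 0.16 (adjusted p = 0.812, exact permutation p = 0.5), with a 95% interval of -0.37 to 0.68.

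Gbp8, also of chromosome 5, was dim and was called in no comparison. Its intensities were 26.5, 32.8, 26.1, 55.3 and 18.5 in CHOW, 52.3, 27.7, 28.1, 42.3 and 41.2 in 2w-WD, and 32.4, 46.9, 66.7, 36.6 and 92.5 in 14w-WD. The group means followed the length of the diet, at log2 5.54 ± 0.39, 5.74 ± 0.28 and 6.08 ± 0.48 (SD, n = 5 each), and each neighbouring pair overlapped. The difference of 14w-WD from CHOW was 0.55 (SE 0.24, adjusted p = 0.291 in limma, exact permutation p = 0.0794) and that from 2w-WD was 0.34 (SE 0.24, adjusted p = 0.337, exact permutation p = 0.214).

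Gbp2 carries a CaaX motif through which the protein is lipidated and held on membranes, and in mouse macrophages it acts with caspase-11 against Gram-negative bacteria. Its bright probe set, 1435906_x_at, had intensities of 3198, 2933, 2390, 3763 and 2435 in CHOW, of 2746, 3486, 4010, 2586 and 1714 in 2w-WD, and of 2244, 2245, 2936, 4311 and 6378 in 14w-WD. The highest values belonged to 14w-WD replicates 4 and 5, while replicates 1 and 2 of the same group were below every CHOW array. In 14w-WD the difference was 0.20 against CHOW (95% interval -0.42 to 0.81, adjusted p = 0.752 in limma) and 0.25 against 2w-WD (-0.37 to 0.87, adjusted p = 0.57), so a change of about the size seen in Gbp3 lay outside both intervals. Without 14w-WD replicate 5 the difference from CHOW was -0.038.

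The dimmer probe set of Gbp2, 1418240_at, differed from it in its pattern. It had 200.01, 54.4, 34.7, 66.6 and 22.5 in CHOW, 33.4, 23.7, 32.5, 34.3 and 6.31 in 2w-WD, and 103, 88.2, 123, 100.2 and 236 in 14w-WD. All 5 arrays of 14w-WD lay above all 5 of 2w-WD, while CHOW replicate 1 was brighter than all arrays but 14w-WD replicate 5. In the fit over all 45037 probe sets it rose in 14w-WD against 2w-WD by 1.78, or 3.43-fold (limma, SE 0.39, adjusted p = 0.0264, exact permutation p = 0.00794). It did not pass in 14w-WD against CHOW (0.87, adjusted p = 0.326) or in 2w-WD against CHOW (-0.91, adjusted p = 0.604). The change in 14w-WD against 2w-WD was smaller in the bright than in the dim probe set by a log2 of 1.53, where the difference of changes (bright minus dim) was -1.53 with an exact permutation p of 0.00794. Adjusted over the 9 such tests of 3 genes in 3 comparisons this p was 0.0715, and for the other 8 it was at least 0.179. The suffix of 1435906_x_at marks a probe set that may also match other transcripts, and its part in the difference was not tested. The call of 1418240_at was lost without any 1 of 2w-WD replicates 2, 4 and 5 or 14w-WD replicates 1, 3 and 5 (adjusted p = 0.0523 to 0.072).

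**Figure D2:**
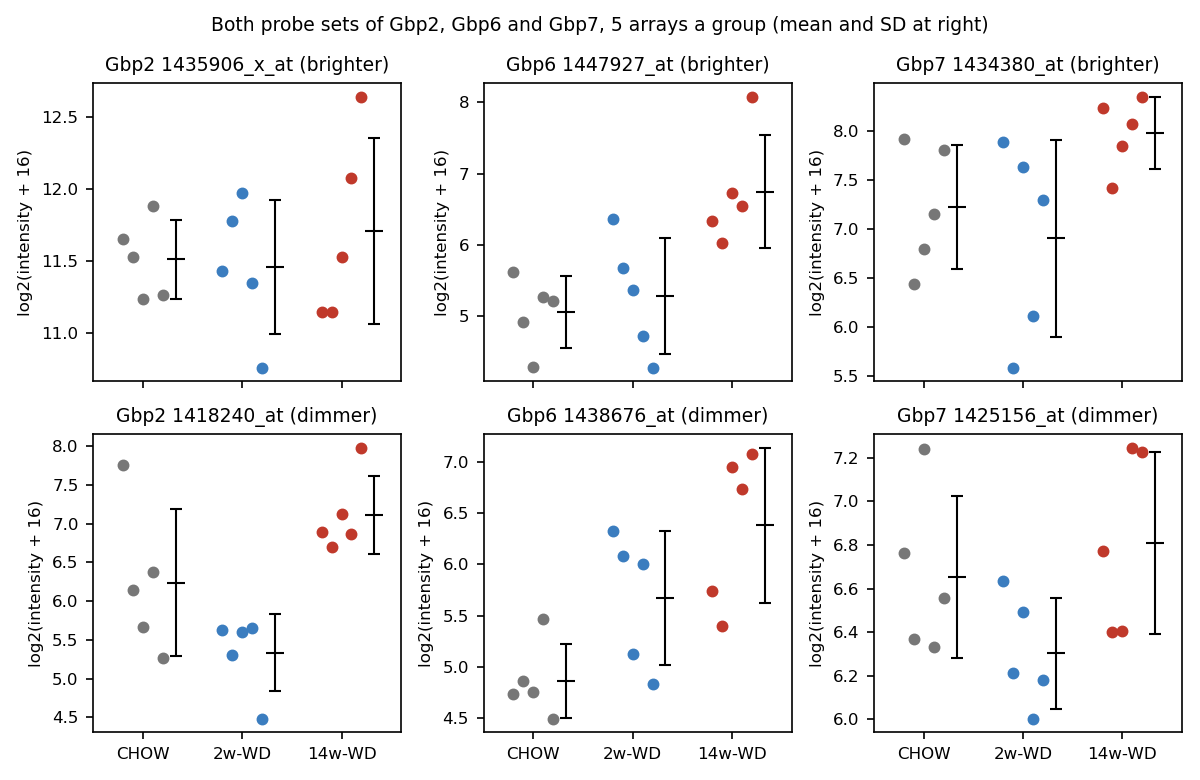
Levels of both probe sets of Gbp2, Gbp6 and Gbp7 as log2(intensity + 16), the brighter one above and the dimmer one below, with 1 point per array and the mean and SD to the right of each of the 3 groups of 5. The 14w-WD points of the dimmer Gbp2 probe set all lie above those of 2w-WD, while those of the brighter one span the range of the other groups.

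Over the 15 arrays the levels of paired probe sets correlated with a Pearson r of 0.79 for Gbp6, 0.57 for Gbp7 and 0.55 for Gbp2. With each group's mean taken away the values were 0.64, 0.41 and 0.60. The paired probe sets share the same arrays and so the same brightness of an array.

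Gbp2b, the gene formerly named Gbp1, had a single probe set, 1420549_at, whose values were among the lowest of the array. They were 8.59, 5.37, 10.2, 4.06 and 11.6 in CHOW, 2.72, 4.06, 33.2, 7.71 and 2.72 in 2w-WD, and 13.0, 3.77, 1, 12.4 and 3.38 in 14w-WD. Its highest value, in 2w-WD replicate 3, was still below the filter intensity, and 14w-WD replicate 3 was listed at 1, a value that each array holds 991 to 1238 times. The difference of 14w-WD was -0.10 from CHOW (exact permutation p = 0.603) and -0.12 from 2w-WD (exact permutation p = 0.786). No array rose above the filter level, and at such intensities a fall or a change below that level was not detectable.

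The comparison of 14w-WD with CHOW asks what a long western diet changed. There, limma called 0 of the 5 tested genes, and of all 11925 genes it called 1 higher (0.00839%) and 0 lower. At an unadjusted p under 0.05, limma counted 3 of the 5, Gbp3, Gbp6 and Gbp8, and 1338 higher and 555 lower genes in all. Gbp6 was among the tested genes through 14w-WD alone. By the representative probe sets the groups did not overlap for 2 of the 6 genes, Gbp3 and Gbp6, against 3.09% of all genes tested, while Gbp6 1438676_at did overlap. The median log2 difference of the 6 genes was 0.65 beside 0.157 over all genes tested. With only the 14w-WD and CHOW arrays in the fit, Gbp3 (adjusted p = 0.0487) and Gbp6 (adjusted p = 0.0491) were both called. In that fit the calls over all genes also rose above the 1 of the main fit, to the count given with the alternatives below. The same 2 genes passed without 2w-WD replicate 1 (adjusted p = 0.0393 and 0.0353), an array of low limma weight that lies outside this comparison and enters it through the shared spread. With single arrays left out in turn, the calls over all genes ran from 0 to 201.

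In 14w-WD against 2w-WD, which sets a long diet beside a short one, 2 of the 5 tested genes, Gbp3 and Gbp6, rose and 0 fell, and 10.1% of all genes tested were called higher (1201 higher and 137 lower). Gbp6 passed the filter through 14w-WD alone, and the members were chosen with results of these arrays known. The count is therefore no independent evidence of a direction. By their representative probe sets, all 6 genes had overlapping groups (0 of 6 without overlap, against 7.06% of all genes tested), whereas the groups did not overlap in the dimmer probe set of Gbp2. In the fit over probe sets 2 of the 9, Gbp6 1447927_at (adjusted p = 0.0498) and Gbp2 1418240_at, were called higher against 3.28% of all probe sets, and Gbp3 had adjusted p = 0.0636. The median difference of the 6 genes was 0.71 beside 0.23 over all genes. After quantile normalization, which took the median of all genes to 0.00746, Gbp3 stood at 0.89 (adjusted p = 0.118), Gbp6 fell under the filter, and the calls over all genes were split into 657 higher and 299 lower. The call of Gbp3 was lost without any 1 of CHOW replicates 2 and 3, 2w-WD replicates 2, 3, 4 and 5 or 14w-WD replicates 1, 3, 4 and 5, and that of Gbp6 without any 1 of 2w-WD replicates 2, 3, 4 and 5 or 14w-WD replicates 1, 3 and 5.

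The comparison of 2w-WD with CHOW asks what a short diet changed. Here limma called 0 of the 5 tested genes and 0 of 11925 genes (0% higher), with 294 higher and 870 lower genes at an unadjusted p under 0.05. The differences were -0.054 for Gbp2, 0.28 for Gbp3, 0.22 for Gbp6, -0.32 for Gbp7 and 0.21 for Gbp8, with adjusted p = 0.772 to 0.958, and 0.021 for Gbp2b. All groups overlapped (0 of 6, against 0.294% of all genes tested), and the median of the 6 genes was 0.11 beside -0.097 over all genes. The 95% intervals were wide, from -0.59 to 1.15 for Gbp3, so differences of either sign lie within it. The 3 comparisons share their groups pairwise, and their values are not independent of each other.

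**Figure D3:**
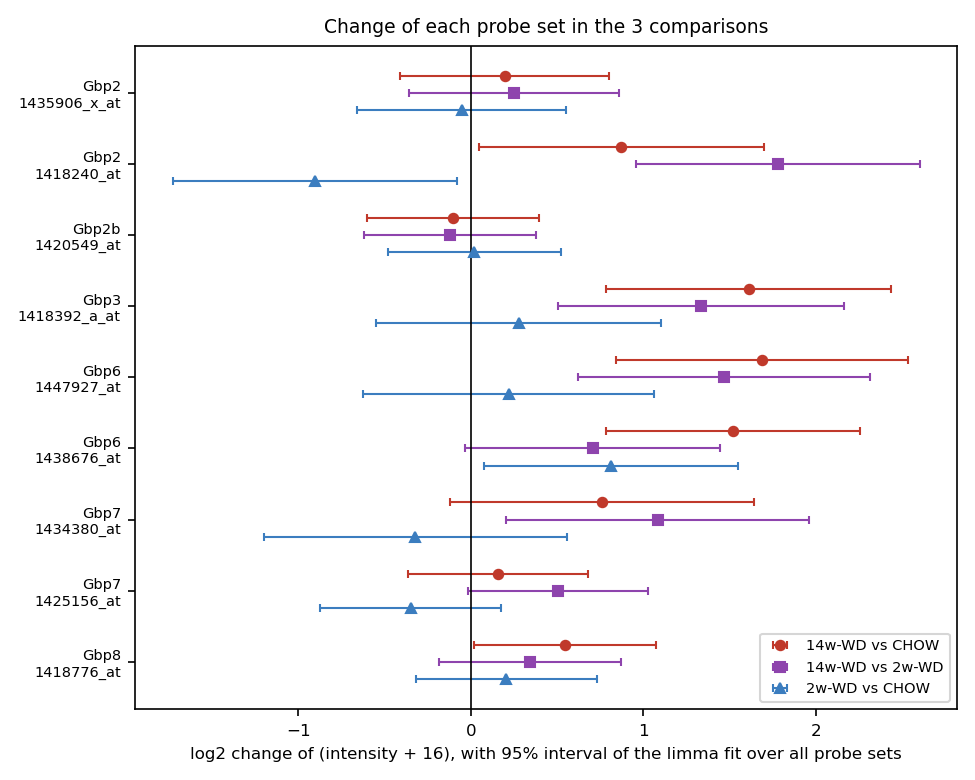
Log2 differences of (intensity + 16) for each of the 9 probe sets, with 95% intervals from the limma fit over all probe sets, for 14w-WD vs CHOW (circles), 14w-WD vs 2w-WD (squares) and 2w-WD vs CHOW (triangles). The circles and squares of Gbp3 and of Gbp6 1447927_at lie at 1.33 to 1.69 with intervals above 0, and all 3 marks of Gbp2b and of the bright Gbp2 probe set have intervals that cross 0.

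Pairs of members were correlated over the arrays to differing degrees. Among the 5 genes above the filter, all 10 pairs had a Pearson r above 0 over the 15 arrays, from 0.20 to 0.88 with a median of 0.61, and from 0.060 to 0.73 with a median of 0.41 once group means were taken away. Gbp3 and Gbp6, which lie on different chromosomes, had the highest r over the 15 arrays (0.88), and Gbp2 and Gbp7, both of chromosome 3, the lowest (0.20). With group means taken away the highest was that of Gbp2 and Gbp6 (0.73, beside 0.72 for Gbp3 and Gbp6) and the lowest that of Gbp7 and Gbp8 (0.060, beside 0.083 for Gbp2 and Gbp7). Replicate 5 of 14w-WD had the highest level of Gbp2, Gbp3, Gbp6, Gbp7 and Gbp8 of all 15 arrays, and a mean over the 5 genes of 9.25 where the other 14w-WD arrays had 7.85 to 8.38. These correlations describe 15 arrays that share their diet groups and differ in brightness. No values for pairs of other genes stand beside them, so they mark no trait of the family.

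**Figure D4:**
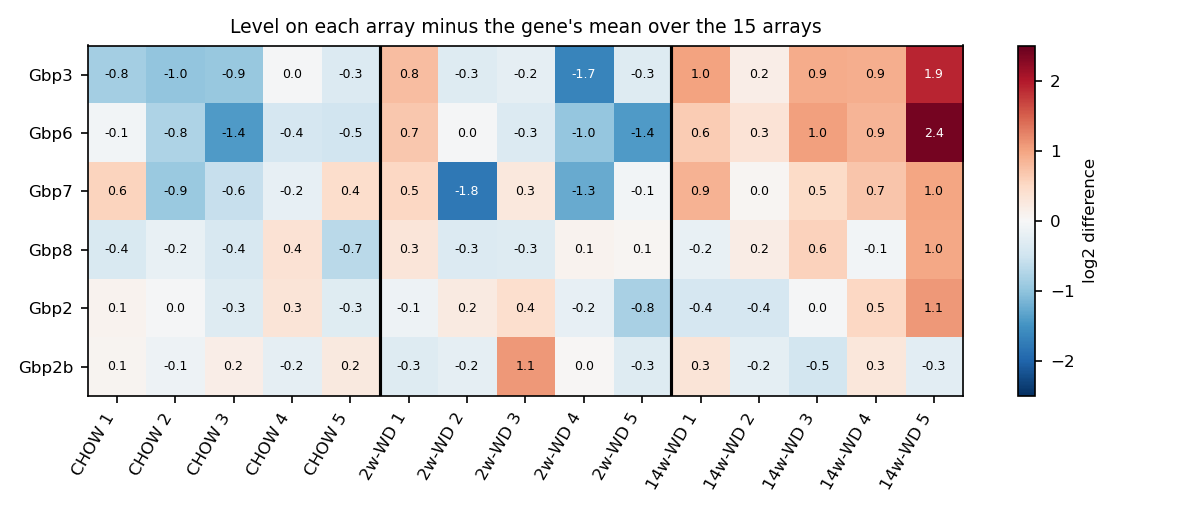
Log2 level of each gene on each array minus the gene's mean over the 15 arrays, in columns for CHOW, 2w-WD and 14w-WD replicates 1 to 5. The 14w-WD columns of Gbp3, Gbp6 and Gbp7 lie above the gene's mean (red, higher), most in replicate 5 and least in replicate 2, where Gbp7 is near its mean. Array 2w-WD replicate 1 is also red for these 3 genes, and CHOW replicates 1 and 5 are red for Gbp7.

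Over 11920 other genes tested, those whose level was most like the mean of the 5 genes were Smndc1 (Pearson r = 0.92), Rad52 (0.92), Dido1 (0.89), Utp15 (0.88), Zfp932 (0.88) and Fut8 (0.87), and the median over all genes was 0.26. With group means taken away they were Rad52 (0.90), Smndc1 (0.85), Ap4e1 (0.83), Klhl22 (0.83), Polr3gl (0.82) and Sdk1 (0.81), with a median of 0.16. Smndc1 encodes a splicing factor, Rad52 a DNA repair protein, Utp15 a factor of ribosome assembly and Fut8 a fucosyltransferase. The lists of interferon-gamma signal genes, immunity-related GTPases and other interferon-gamma targets are taken up below. Among their tested genes Psme1 (0.84), Irgm2 (0.80), Cxcl9 (0.78), Igtp (0.77) and Irf1 (0.75) had the highest values. With group means taken away these 5 stood at 0.76, 0.58, 0.64, 0.66 and 0.48. At the other end Socs3 (-0.37), Ido1 (-0.37) and Irf9 (-0.15) were below 0.

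The genes around the guanylate-binding proteins were taken by role, from the interferon-gamma signal to the defences at the vacuole. Over these lists, limma called 12 of 57 tested genes in 14w-WD against 2w-WD, all of them higher, beside 10.1% of all genes tested. In 14w-WD against CHOW and in 2w-WD against CHOW it called 0. At an unadjusted p under 0.05 limma counted 15 higher and 0 lower in 14w-WD against CHOW, beside 1338 higher and 555 lower of 11925 genes. For 2w-WD against CHOW the counts were 1 higher and 6 lower, beside 294 higher and 870 lower of all genes. Of the signal genes (ligand, receptors, kinases, transcription factors and inhibitors) 1 of 12 tested rose, Irf1, the transcription factor that drives many interferon-gamma targets (1.20, SE 0.30, adjusted p = 0.0238 in limma). After quantile normalization it stood at 0.69 (adjusted p = 0.0942). It averaged log2 8.63 ± 0.44 in 14w-WD and 7.43 ± 0.24 in 2w-WD (SD, n = 5 each). Irf8, a factor of the macrophage lineage, was at 1.06 (SE 0.42, adjusted p = 0.0976). Ifng itself lay below the filter in all groups (5.53, 5.37 and 5.63 for CHOW, 2w-WD and 14w-WD).

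The immunity-related GTPases are a second family that interferon-gamma switches on and that acts at the same vacuoles. In 14w-WD against 2w-WD 2 of 5 tested genes were called higher, beside 10.1% of all genes tested. Irgm2, a regulator that keeps the family off the cell's own membranes, rose by 1.85, or 3.61-fold (SE 0.34, adjusted p = 0.0111). Ifi47 rose by 1.88 (SE 0.42, adjusted p = 0.0178), while Igtp, also known as Irgm3, had 1.16 (SE 0.39, adjusted p = 0.0624). The medians of this list were 1.16 in 14w-WD against 2w-WD, 1.13 in 14w-WD against CHOW and -0.35 in 2w-WD against CHOW, beside 1.08, 0.76 and 0.21 for the 5 tested guanylate-binding protein genes. Both are over genes above the filter and so describe these genes only. The difference between the families was not tested.

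Among other targets of interferon-gamma 2 of 14 rose, Cd274, which encodes the checkpoint ligand PD-L1 (1.04, SE 0.23, adjusted p = 0.0178), and Psmb8, an immunoproteasome subunit (2.10, SE 0.60, adjusted p = 0.0369). With the mean of its probe sets Psmb8 stood at 1.05 (adjusted p = 0.1), and with each probe set tested its adjusted p was 0.0587. Of the inflammasome and pyroptosis genes, on which the guanylate-binding proteins act, 1 of 9 rose, Il18, a cytokine that caspase-1 matures (0.89, SE 0.23, adjusted p = 0.027). The counts of both lists, and the 1 of 12 signal genes, lie near the 10.1% called higher over all genes tested. They mark no trait of these lists. Casp4, the gene of mouse caspase-11, had 0.78 (SE 0.25, adjusted p = 0.0539).

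Genes that place the proteins on membranes, by prenylation and through the autophagy conjugation system, had 5 of 13 tested genes called. Over all genes tested 10.1% were called higher. Gabarapl2, a ubiquitin-like protein of the autophagosome, rose by 1.21 (SE 0.23, adjusted p = 0.0113), and Icmt, which methylates prenylated CaaX proteins, by 1.18 (SE 0.28, adjusted p = 0.021). The autophagy conjugation genes Atg12 (1.48, SE 0.36, adjusted p = 0.0212) and Atg7 (1.07, SE 0.28, adjusted p = 0.027) rose too. The fifth was Gabarap (1.43, SE 0.41, adjusted p = 0.0381), named after its values were seen. Of the nitric oxide and NADPH oxidase genes 1 of 4 rose, Ncf4, a cytosolic subunit of the oxidase (1.65, SE 0.44, adjusted p = 0.0283). After quantile normalization the counts were 0 for the signal genes, 0 for the inflammasome genes and 3 for membrane placement. Single arrays moved them too, and they ranged over the arrays left out in turn from 0 to 4 for the signal genes, 1 to 4 for the immunity-related GTPases, 0 to 3 for the other targets, 0 to 4 for the inflammasome genes, 1 to 5 for membrane placement and 0 to 1 for the oxidase genes.

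**Figure D5:**
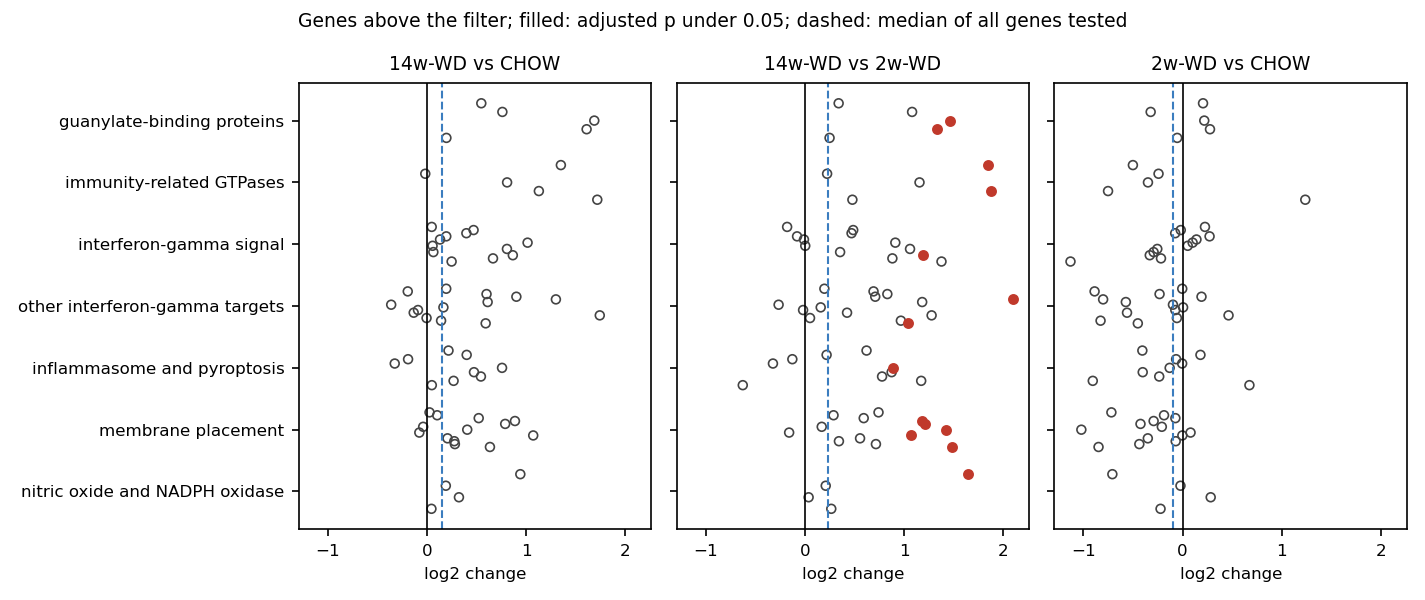
Log2 changes of the tested genes of each list in 14w-WD vs CHOW, 14w-WD vs 2w-WD and 2w-WD vs CHOW, with filled points for an adjusted p under 0.05 in limma and a dashed line at the median of all genes tested (0.157, 0.23 and -0.097). Filled points occur in the 14w-WD vs 2w-WD panel only, 2 of them among the guanylate-binding protein genes and 5 in membrane placement.

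The captured cells carried macrophage markers on every array, with 8 of 9 markers above the filter and a summed intensity of 48315 to 67698 for CHOW, 43547 to 56749 for 2w-WD and 50490 to 60880 for 14w-WD. Markers of other tissues were present as well, with heart muscle sums of 1725 to 40409, 39145 to 68969 and 22702 to 49389 in these 3 groups and fibroblast sums of 18820 to 27511, 15438 to 23983 and 21628 to 32008. In 14w-WD against 2w-WD limma called 1 of 8 tested macrophage markers and 2 of 5 fibroblast genes higher, beside 10.1% of all genes tested. The macrophage marker was Aif1 (1.82, SE 0.33, adjusted p = 0.0106). The fibroblast genes were Pdgfra (1.95, SE 0.52, adjusted p = 0.0291) and Col1a1 (1.05, SE 0.31, adjusted p = 0.0402). The median was 0.39 over the macrophage markers, where Csf1r stood at -0.044, and 1.04 over the fibroblast genes. Of the 6 heart muscle genes 0 had a difference above 0 (median -0.41) and 0 were called. Against CHOW all 6 were higher, with a median of 0.89 in 14w-WD and 1.67 in 2w-WD, and 0 were called. The macrophage markers had medians of 0.039 in 14w-WD and -0.45 in 2w-WD against CHOW, and the fibroblast genes 0.45 and -0.59. Over all genes tested these medians were 0.157 and -0.097. The part of such tissue in the differences of the members was not tested. The call of Col1a1 was lost in 15 of 30 alternatives, among them quantile normalization (adjusted p = 0.055), no filter (0.0532) and the mean of its probe sets (0.60, adjusted p = 0.0747), and that of Pdgfra was lost with quantile normalization (adjusted p = 0.0505). Of the T and NK cell markers, whose cells make interferon-gamma, 6 of 8 had a probe set. Of these 6, 2 were above the filter, Cd3e and Nkg7, and Cd2 and Gzma were under its intensity on all 15 arrays. The sums were 278 to 365 for CHOW, 118 to 529 for 2w-WD and 235 to 550 for 14w-WD. In CHOW, 2w-WD and 14w-WD Cd3e averaged log2 7.82, 7.21 and 7.87, and Nkg7 5.72, 5.86 and 6.42. Neither was called in any comparison. With the mean of the 5 tested guanylate-binding protein genes, Nkg7 had a Pearson r of 0.70 and Cd3e of 0.13. With group means taken away these were 0.56 and -0.030. The part of these cells in the values of the guanylate-binding protein genes was not tested.

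The arrays also differed in brightness, with 21.7% ± 1.84 of probe sets above an intensity of 100 for CHOW, 20.9% ± 2.86 for 2w-WD and 24.8% ± 1.79 for 14w-WD (SD, n = 5 each). With that share as a covariate, added after seeing the data, the differences of 14w-WD from 2w-WD were 0.77 for Gbp3 (adjusted p = 0.729) and 0.89 for Gbp6 (adjusted p = 0.687), and 0 of the 11925 genes were called. With the mean of the macrophage markers as the covariate they were 1.39 (adjusted p = 0.723) and 1.61 (adjusted p = 0.68), again with 0 genes called. Without the 3 arrays of lowest limma weight (2w-WD replicates 1 and 4 and CHOW replicate 1) the differences of 14w-WD from 2w-WD were 1.28 for Gbp3 (adjusted p = 0.0221) and 1.64 for Gbp6 (adjusted p = 0.0148), and those from CHOW were 1.56 and 1.83, both called (adjusted p = 0.0156). Without these arrays the calls over all genes rose in both comparisons too, to the counts given with the alternatives below.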

How the data were processed

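The authors deposited linear intensities, 1 per probe set and array, for 45037 probe sets on 15 arrays. The summarising, background correction and scaling behind them: not given in the sources used here. Per the labels' protocols the RNA was amplified and biotin-labelled. Array medians lay between 31.7 and 38.2, and for arrays the number per group, 5, limits the precision.

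Intensities were turned into log2(intensity + 16) in place of deposited log2 values, as foreseen for linear values. Probe sets were named through GEO's platform annotation: 34945 had 1 gene, 932 had several, of which 1 names a guanylate-binding protein gene and was left out, and 9160 had none. The probe set with the highest mean represented a gene. The gene test left out genes whose mean was under the 50th percentile of the probe sets, a log2 level of 5.66 or 34.6 in intensity. limma 3.58.1 in R 4.3.3 (lmFit, eBayes with an intensity trend) was fitted on all 15 arrays without covariates. A call needed a p under 0.05 after Benjamini-Hochberg adjustment over all genes tested. The fit was tested on simulated data. Exact permutation tests were two-sided over the 252 splits of 10 arrays and not adjusted unless stated. Motifs were searched by script in RefSeq promoter windows of GRCm38.p6.

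The members and the gene lists were chosen with earlier results of these data known. All members were named with every probe set. Of each list up to 4 genes were named, those called by smallest p, plus Ifng, Irf1, Igtp, Casp4 and Irf8 always, and likeness was ranked by Pearson r with genes of clone or predicted names left out. Alternatives changed the scaling, the pseudocount, the filter, the arrays, the weights, the variance prior, the choice of probe set and the replicate block.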

Additional observations from a re-analysis of the deposited data

Results flagged for a closer look

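Of the 27 groups of 5 arrays that the 9 probe sets form, 1 held an array far from the others by Dixon's criterion, which chance meets in about 1 of 20 groups. In 2w-WD the probe set of Gbp2b, 1420549_at, stood at log2 5.62 on replicate 3, where the next array was at 4.57 and the lowest at 4.23. The gap was 0.756 of the group's range, above the critical value of 0.71. The value lies below the filter level of 5.66, and no other guanylate-binding protein probe set stood apart on that array.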

How the results depend on the processing

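The median difference of the 6 guanylate-binding protein genes moved by less than the spread between replicates under all 30 alternatives, from 0.34 to 0.80 in 14w-WD against CHOW, from 0.42 to 0.90 in 14w-WD against 2w-WD and from -0.026 to 0.15 in 2w-WD against CHOW. The number of member genes called was less firm. In 14w-WD against CHOW it was 0, but 2 with only the 2 groups compared, 3 with array weights, 2 when the 3 arrays with the lowest weights were dropped and 0 to 2 with single arrays left out. In 14w-WD against 2w-WD it was 2, but 0 with quantile normalization, a pseudocount of 1 or either added covariate, 1 with median centring, no filter, the stricter filter, only the 2 groups compared or each probe set tested, and 0 to 3 with single arrays left out. The adjusted p of Gbp3 ranged from 0.00787 to 0.729 and that of Gbp6 from 0.00558 to 0.687 in that comparison, and the covariates were added after seeing the data. In 2w-WD against CHOW it was 0 throughout. Over all genes, 1 call in 14w-WD against CHOW became 7 with a pseudocount of 64, 17 with no filter, 0 with the stricter filter, 122 with only the 2 groups, 2234 with array weights, 0 with the mean of a gene's probe sets, 4 with each probe set tested, 0 with either covariate, 1353 without the 3 arrays and 0 to 201 with single arrays left out. In 14w-WD against 2w-WD 1338 calls became 3839 with array weights, 838 with each probe set tested, 0 with either covariate, 3175 without the 3 arrays and 164 to 3536 with single arrays left out. Median centring split the calls of that comparison into 975 higher and 191 lower, and with the mean of its probe sets Gbp2 was called (1.01, adjusted p = 0.0428). The direction turned for Gbp2 in 14w-WD against CHOW without 14w-WD replicate 5 (-0.038), for Gbp7 1425156_at in that comparison with quantile normalization (-0.019) and for Irf8 in 14w-WD against 2w-WD with the macrophage covariate (-0.17). In 2w-WD against CHOW it turned for Gbp2 without CHOW replicate 4 (0.040), 2w-WD replicate 5 or the 3 arrays (0.027), for Gbp3 and Gbp6 without 2w-WD replicate 1 and for Gbp7 without 2w-WD replicate 2. With single arrays left out the values there ran from -0.18 to 0.12 for Gbp2, -0.0054 to 0.60 for Gbp3, -0.053 to 0.47 for Gbp6 and -0.57 to 0.0090 for Gbp7. The cause of these shifts was not tested.

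The labels do not say whether equal replicate numbers mark paired samples, and the main fit did not pair them. Of 15 pairs with the same number 7 correlated over 0.1 in their deviations from the group means (-0.17 to 0.48, median 0.087). Of the 15 arrays 6 were closest to an array of their own number. A shared batch or pairing by these numbers was not tested further. With the number as a replicate block, 0 member genes and 20 genes in all were called in 14w-WD against CHOW, and 3 member genes (Gbp7 with adjusted p = 0.0256 beside Gbp3 and Gbp6) and 2122 genes in 14w-WD against 2w-WD. Brightness limits what the dim probe sets of Gbp2b, Gbp6 and Gbp8 can show.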
